A study of Mus musculus with 6 samples.

Results

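The genes described here are Nrg4, the gene deleted in these mice, with the ErbB receptor genes and a small set of their ligands and feedback regulators, measured in mouse liver. All probe sets annotated to exactly 1 of 10 gene symbols were taken, 19 probe sets in all, out of 17097 genes that had such a probe set on the array. They are the ligand genes Nrg4, Hbegf and Tgfa, the receptor genes Egfr, Erbb2, Erbb3 and Erbb4, and the genes Errfi1, Dusp6 and Etv5, which are known to be induced by receptor signalling. The probe set with the highest mean over all 6 arrays gives each gene its main value.

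Livers came from wild-type mice and from Nrg4 knockout mice, all labelled C57BL/6, which had eaten high-fat food for 8 weeks starting when they were 3 months old. They were taken from mice feeding at random. Each genotype has 3 arrays, each with its own pool of RNA. How many mice a pool holds, their sex, and which stretch of Nrg4 the knockout allele removes and in which cells were not found in the labels. All p-values rest on the spread between these pools, and only 3 arrays per genotype limit the precision.

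Neuregulin 4 is a small secreted protein of the epidermal growth factor family that is made mainly in brown fat. It is known to bind ERBB4, alone or in receptor pairs. ErbB receptors pair when a ligand binds, phosphorylate each other and recruit adaptors that start the RAS-ERK and PI3 kinase-AKT cascades. ERBB2 has no known ligand of its own and ERBB3 has little kinase activity, so each depends on a partner. Hepatocytes are known for abundant EGFR and ERBB3. ERK signalling induces its own brakes, among them the receptor inhibitor encoded by Errfi1 and the ERK phosphatase encoded by Dusp6.

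Values are log2 signals, so a difference of 1 is a doubling, and levels are not compared between probe sets. Array medians lay between 2.98 and 3.04. A gene was called changed at a Benjamini-Hochberg adjusted p under 0.05 in limma. This method fits a linear model to each gene and draws its variance towards those of other genes. Genes whose mean signal was under 2.66, a limit set so that 40% of probe sets fall under it, were left out of the gene test as dim, and 12466 genes remained. Of the members, 9 of 10 were tested and Erbb4 was not. All 8 hepatocyte marker genes were bright, and their mean signal lay between 11.58 and 11.65 on every array. Of the 3 white fat markers with a probe set 1 was above the dim limit, and their mean ran from 2.88 to 3.33. The mean of 5 brown fat markers was 3.94 to 3.98 in wild type and 4.01 to 4.16 in the knockout, with 3 of 5 genes higher. The level of this mean leaned on Elovl3, at 8.67 over all arrays with a log2 change of 0.15. The other brown fat markers stood at 2.56 to 3.26, and 4 of the 5 were above the dim limit. Cidea had the largest log2 change, 0.52, while Cox8b (-0.20) and Ucp1 (-0.08) were lower. Ucp1, the brown fat uncoupling protein gene, stood at 2.86 over all arrays.

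Nrg4 was the only member that changed. It read 4.94, 4.79 and 4.77 in wild type. Knockout arrays read 2.56, 2.43 and 2.64. Every knockout array lay below every wild-type array, and all 3 knockout values lay under the dim limit, so the gene entered the test through its wild-type signal. Nrg4 fell by 2.30 on the log2 scale (95% interval -2.51 to -2.08; limma adjusted p = 4.76e-05), from 4.84 ± 0.09 to 2.54 ± 0.11 (SD, n = 3 arrays per genotype). Since nonspecific control probe sets reached 5.29 to 5.84 on these arrays, with medians of 1.65 to 1.76, neither level is by itself a measure of how much Nrg4 RNA is present. Whether the probe set lies in the deleted stretch is not known here, so it is no full check of the genotype. Over all genes 0.0401% were called, 5 of 12466, and 0.0241% were called lower. Leaving out knockout replicate 1 made the count 17, and leaving out each other array made it 1 or 2. The change of Nrg4 itself lay between -2.34 and -2.24 over all 15 alternatives tried, and it was called in each.

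A further probe set carries the symbols of Nrg4 and of its neighbour Fbxo22 together, and by the rule it belongs to neither. RefSeq places the genes on opposite strands of chromosome 9 with their 3′ ends overlapping. This probe set read 3.84, 3.78 and 3.84 in wild type and 2.67, 2.72 and 2.79 in the knockout. It fell by 1.10 on the log2 scale (95% interval -1.28 to -0.91; limma adjusted p = 0.00263 over all 45037 probe sets, of which 0.0289% were called). The 3 probe sets of Fbxo22 alone, which encodes an F-box protein of a ubiquitin ligase, had log2 changes of 0.07, 0.16 and 0.17 and did not pass. Over 13 alternatives the shared probe set kept a change between -1.13 and -1.07 and an adjusted p of at most 0.0341. It was chosen for description after its values were seen.

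The promoter of Nrg4 is shown because it is the member whose probe set signal fell past the threshold. It runs from 250 bases before to 50 bases after the RefSeq start in assembly GRCm38.p6, and is written 5′ to 3′. Capitals would mark CGGAA, a form of the sites bound by ETS factors, on either strand. This window holds none, though it holds the shorter GGAA, which was not searched.
Nrg4, chr9:55283576-55283875, minus strand: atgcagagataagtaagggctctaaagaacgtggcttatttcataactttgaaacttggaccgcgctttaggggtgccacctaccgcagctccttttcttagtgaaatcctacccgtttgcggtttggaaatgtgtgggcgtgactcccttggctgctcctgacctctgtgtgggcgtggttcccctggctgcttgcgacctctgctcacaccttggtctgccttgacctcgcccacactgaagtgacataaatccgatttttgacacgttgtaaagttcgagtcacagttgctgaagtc

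**Figure D1:**
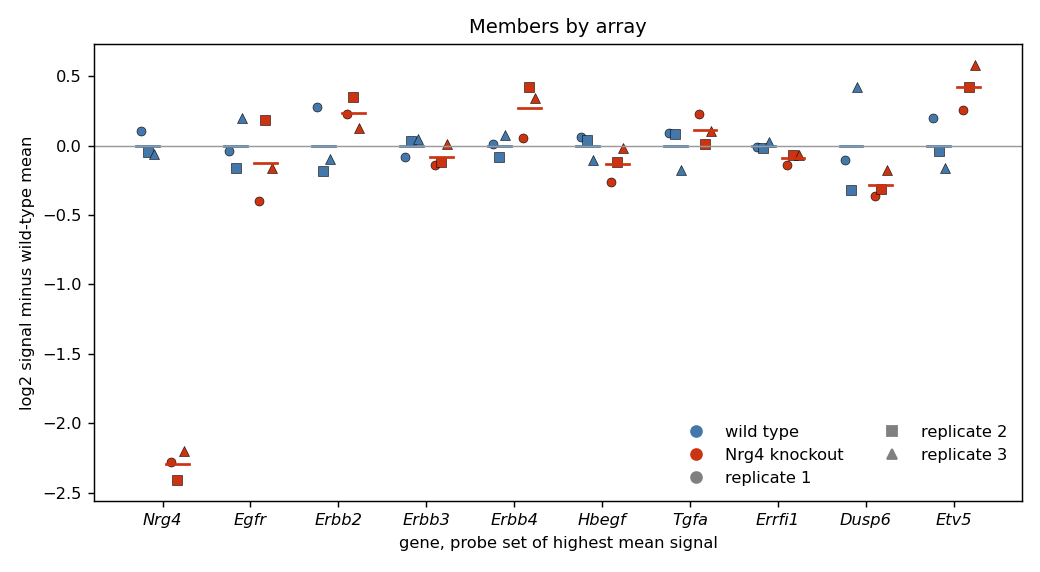
Each point is 1 array, plotted as its log2 signal minus the wild-type mean of that gene's main probe set, with blue for wild type, red for the Nrg4 knockout, symbol shape for replicate number and bars for group means. The knockout points of Nrg4 sit more than 2 log2 units below wild type, while in most other members the colours mix.

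Among the receptors none passed the test. Egfr, the receptor for EGF, TGF-alpha and HB-EGF, had a main signal of 9.69, 9.57 and 9.93 in wild type and 9.34, 9.92 and 9.57 in the knockout. The genotypes overlapped, with knockout replicate 1 lowest and wild-type replicate 3 highest. Its log2 change was -0.13 (95% interval -0.48 to 0.23; limma adjusted p = 0.832), and without knockout replicate 1 it was 0.0084.

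Egfr is the member with the most probe sets, 6 in all. In order of mean signal they had log2 changes of -0.13, -0.18, -0.18, -0.28, -0.07 and 0.14. The arrays stood in a similar order on the brightest 4 of them: knockout replicate 1 was the lowest and wild-type replicate 3 the highest on each. The third probe set read 7.61, 7.59 and 7.99 in wild type against 7.53, 7.55 and 7.56 in the knockout, so these values did not overlap, though by a narrow margin. The faintest read 2.72, 2.82 and 2.90 against 2.96, 2.92 and 2.99, with no overlap in the opposite direction. Over all probe sets the genotypes did not overlap in 13.4%. None of the 5 other Egfr probe sets differed from the main one in its change by a margin that passed (limma adjusted p of the differences 0.631 to 0.958). Among pairs of probe sets of 1 gene, 0.0458% were called in that test. Knockout replicate 1 also had the lowest 5′ signal relative to 3′ on the controls for Actb and Gapdh, a log2 difference of -1.31 against -0.96 to -0.65 on the other arrays; its part in the Egfr values was not tested.

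**Figure D2:**
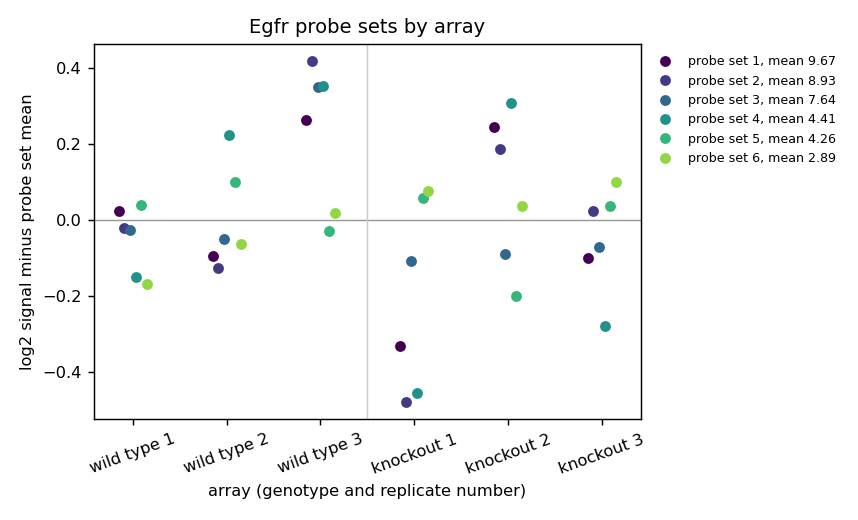
Each point is the log2 signal of 1 Egfr probe set on 1 array, minus that probe set's mean over the 6 arrays, with arrays along the x axis and the probe sets numbered by mean signal. The 4 brightest probe sets are all highest on wild-type replicate 3 and lowest on knockout replicate 1, and on 3 of these 4 the knockout arrays lie on both sides of 0.

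Erbb3, the kinase-impaired receptor of neuregulins, was steadier. Its main probe set read 8.07, 8.19 and 8.20 in wild type and 8.01, 8.03 and 8.17 in the knockout, with a log2 change of -0.08 (95% interval -0.29 to 0.12; limma adjusted p = 0.807). Its within-genotype SD was 0.08, smaller than that of all but 17.1% of genes tested. The second, faint probe set averaged 2.87 ± 0.11 over wild-type and 2.88 ± 0.32 over knockout arrays (SD, n = 3 each), the wider knockout spread coming from replicate 1 at 3.24.

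Erbb2, the receptor without a ligand, read 3.45, 2.99 and 3.08 in wild type and 3.40, 3.52 and 3.30 in the knockout. Wild-type replicate 1 lay among the knockout arrays. The log2 change was 0.24 (95% interval -0.06 to 0.54; limma adjusted p = 0.597), and it was 0.37 without wild-type replicate 1 and 0.14 without wild-type replicate 2, with adjusted p-values of 0.421 and 0.922. Erbb4, the receptor that neuregulin 4 binds, lay under the dim limit. It read 1.72, 1.62 and 1.78 in wild type and 1.76, 2.13 and 2.05 in the knockout, near the medians of the nonspecific controls. The log2 change of 0.27 in the fit of every probe set (95% interval 0.02 to 0.52; limma adjusted p = 0.577, unadjusted p = 0.0353) is a difference between signals under the dim limit, and the genotypes overlapped through knockout replicate 1.

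The other ligands of the receptors did not pass either. Hbegf, which encodes heparin-binding EGF, read 3.63, 3.61 and 3.46 in wild type and 3.31, 3.45 and 3.55 in the knockout. Its log2 change was -0.13 (95% interval -0.36 to 0.09; limma adjusted p = 0.697). A second probe set of the gene, close to the dim limit at 2.66 ± 0.10 and 2.75 ± 0.08 (SD, n = 3 each), had a change of 0.09. The difference between these probe sets was lower in every knockout array than in every wild-type array but did not pass (log2 change -0.22, limma adjusted p = 0.553). Tgfa, which encodes transforming growth factor alpha, read 5.69, 5.68 and 5.42 in wild type and 5.83, 5.61 and 5.70 in the knockout. Its log2 change was 0.11 (95% interval -0.13 to 0.36; limma adjusted p = 0.775), and its 2 fainter probe sets had changes of 0.04 and 0.17.

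**Figure D3:**
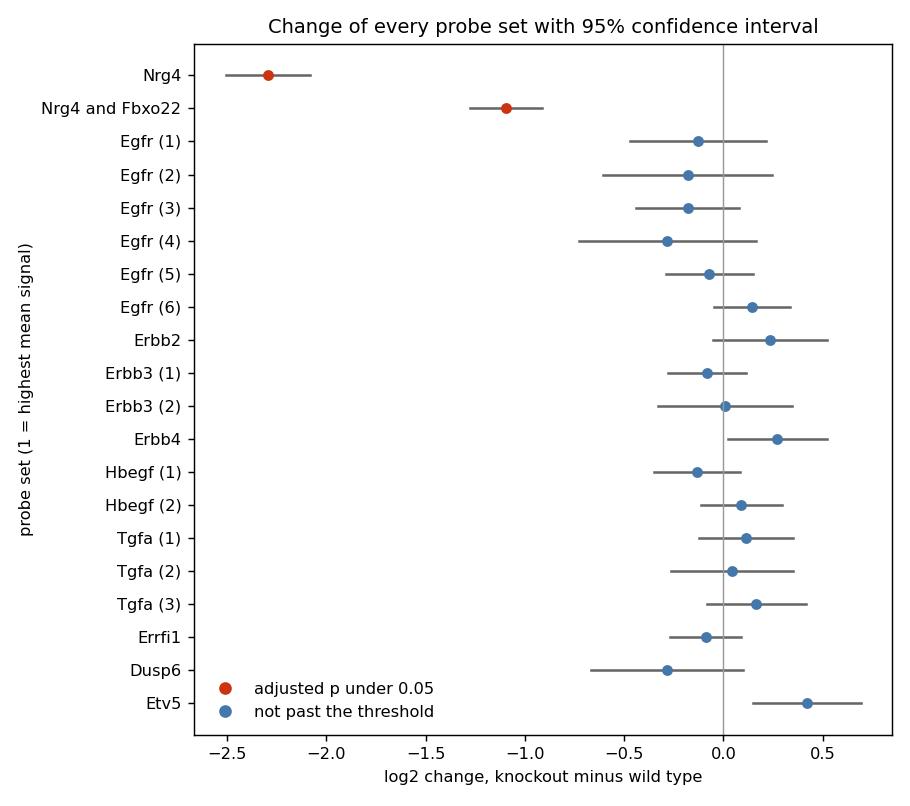
Points are log2 changes (knockout minus wild type) of all 19 member probe sets and of the probe set shared by Nrg4 and Fbxo22, with bars for the 95% confidence interval of the limma fit of every probe set, and numbers ordering the probe sets of a gene by mean signal. The 2 red points passed at adjusted p under 0.05, and the intervals of all others but Erbb4 and Etv5 include 0.

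The 3 feedback genes did not move in a common direction. Etv5, an ETS transcription factor induced by ERK, read 3.04, 2.81 and 2.68 in wild type and 3.10, 3.27 and 3.42 in the knockout. All knockout values lay above all wild-type values, the closest pair being 3.04 and 3.10. Its log2 change of 0.42 was 1.34-fold (95% interval 0.14 to 0.70; limma adjusted p = 0.348, unadjusted p = 0.00826), so it did not pass over all genes. Across 14 alternatives the change stayed between 0.34 and 0.52 with an adjusted p of at least 0.107. The signal is faint, and 2 probe sets that carry the symbols of Etv5 and Scpep1 together lay under the dim limit with changes of -0.21 and -0.11. Probe sets of Scpep1 alone were also lower, with log2 changes of -0.13 and -0.25, and did not pass.

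Dusp6, the ERK phosphatase, read 7.66, 7.44 and 8.19 in wild type and 7.40, 7.45 and 7.59 in the knockout. Wild-type replicate 3 was the highest array, while the other wild-type arrays lay among or close to the knockout values. The log2 change was -0.28 (95% interval -0.68 to 0.11; limma adjusted p = 0.633), and without wild-type replicate 3 it was -0.07. The within-genotype SD of 0.28 was larger than that of 93.9% of genes tested. The same array was the highest for the brightest 4 probe sets of Egfr.

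Errfi1, which encodes the EGFR inhibitor MIG6, varied least. It read 10.85, 10.85 and 10.89 in wild type and 10.73, 10.80 and 10.80 in the knockout. The genotypes did not overlap, yet the log2 change was only -0.09 (95% interval -0.27 to 0.09; limma adjusted p = 0.759). Its within-genotype SD of 0.03 was larger than that of only 1.39% of genes tested, and the limma fit, which draws small SDs towards those of other genes, gave an SE of 0.08.

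The promoters of Dusp6 and Etv5 are shown because both genes are read here as outputs of ERK, whose nuclear targets include ETS factors. Capitals mark CGGAA or its reverse complement, the letters searched above. Of 32851 RefSeq promoter windows of this length 29.9% hold at least 1 match, and matches may be part of longer motifs. Dusp6 has 3 matches and this window of Etv5, which has 2 windows in the table, has none. The letters describe the windows only, and other forms of ETS sites were not searched.
Dusp6, chr10:99262981-99263280, plus strand: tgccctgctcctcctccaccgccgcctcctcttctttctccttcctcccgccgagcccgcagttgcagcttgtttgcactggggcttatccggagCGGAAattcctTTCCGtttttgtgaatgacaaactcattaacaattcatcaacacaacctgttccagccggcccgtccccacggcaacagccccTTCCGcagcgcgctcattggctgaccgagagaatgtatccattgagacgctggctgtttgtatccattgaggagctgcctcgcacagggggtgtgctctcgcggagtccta
Etv5, chr16:22439521-22439820, minus strand: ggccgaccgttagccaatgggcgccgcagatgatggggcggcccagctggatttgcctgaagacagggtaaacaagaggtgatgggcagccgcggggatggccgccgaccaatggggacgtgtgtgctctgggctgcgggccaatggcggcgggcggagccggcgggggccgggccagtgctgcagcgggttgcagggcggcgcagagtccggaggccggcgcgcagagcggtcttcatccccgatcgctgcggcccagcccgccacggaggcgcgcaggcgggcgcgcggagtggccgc

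Without Nrg4, 3 of the 8 members tested had a higher value in the knockout and 5 a lower one, with a median log2 change of -0.09. Over all genes tested 63.4% had a higher value and the median was 0.04. In limma 0 of the 8 were called, against 0.0401% of all genes tested. At an unadjusted p under 0.05 there was 1 of the 8, against 9.55% of all genes. That member, Etv5, was higher, and 7.36% of all genes were both higher and under this unadjusted limit. The genotypes did not overlap in 2 of the 8, Etv5 higher and Errfi1 lower, against 15.6% of all genes. By probe set, 9 of 18 were higher and 9 lower. The genotypes did not overlap in 4 of the 18, against 13.4% of all probe sets. In limma 0 of 18 passed, against 0.0289% of all probe sets. At an unadjusted p under 0.05 there were 2, against 8.08% of all probe sets. Over these 8 genes the 95% intervals ran from -0.68 at the lowest to 0.70 at the highest and had half-widths of 0.18 to 0.40, so changes smaller than these widths could not be told from 0.

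The rest of the pathway was described with 8 lists of genes that are not members. Of 87 listed genes 77 had a probe set of 1 symbol and 67 were tested. None passed in limma, where over all genes 0.0401% did. Of the 67, 11 had an unadjusted p under 0.05, against 9.55% of all genes. Values were higher in 42 and lower in 25, with a median log2 change of 0.09, and the counts of higher genes that follow stand against the 63.4% of all genes that were higher. The genotypes did not overlap in 15 that were higher and 3 that were lower, where over all genes 11.7% and 3.92% did so. For each list the genes named have the smallest unadjusted p, except Fos, which was chosen after its values were seen.

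Few other ErbB ligands gave usable signal. Nrg1, Nrg3, Btc, Ereg and Egf lay under the dim limit, with group means between 2.06 and 2.70, and Areg was not analysed here. Nrg2, a neuregulin, had a log2 change of 0.19 and Epgn, an EGFR ligand, of -0.0052. The proteases and partners that release membrane-bound ligands had higher values in 5 of 6 genes, with a median of 0.19. Rhbdf1, which encodes the ADAM17 partner iRhom1, stood at 0.35 (SE 0.09, limma adjusted p = 0.314). Its arrays read 4.48, 4.30 and 4.50 in wild type and 4.69, 4.80 and 4.84 in the knockout, with no overlap. Adam17, the main sheddase of TGF-alpha and HB-EGF precursors, stood at 0.26, but its other probe sets above the dim limit were at -0.17 and -0.18.

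Receptor adaptors split evenly, with 6 of 11 higher and a median of 0.01. Shc1, which links receptors to RAS, read 5.17, 5.27 and 5.58 in wild type and 5.82, 5.74 and 5.70 in the knockout (log2 change 0.41, SE 0.12, limma adjusted p = 0.336). Gab2, a docking protein of the PI3 kinase arm, stood at 0.36 without overlap (limma adjusted p = 0.348). Fainter probe sets of both genes were near 0, at -0.08 and -0.04. Among RAS and MAP kinases, where 7 of 13 genes were tested, 5 were higher (median 0.14), with Rps6ka3, a kinase that ERK activates, at 0.31 (other probe sets 0.35 and 0.01) and Araf at 0.18 (other probe set -0.06). Of the PI3 kinase and AKT list 6 of 10 were higher (median 0.05). Pik3ca, the catalytic subunit, stood at 0.19, and its 4 other probe sets at 0.20, 0.0093, -0.03 and -0.14. Gsk3b, a kinase that AKT inhibits, stood at -0.45, while its 3 other probe sets had changes from -0.19 to 0.04. All 6 JAK, STAT and SRC genes were higher by small amounts (median 0.13), with Stat3 at 0.20 and Jak1 at 0.20. The other Stat3 probe set stood at -0.17 and those of Jak1 at 0.15 and -0.32.

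The negative regulators were higher in 9 of 15 genes (median 0.07). Dusp7, like Dusp6 a phosphatase of ERK, read 3.68, 3.84 and 3.46 in wild type and 4.33, 4.10 and 4.02 in the knockout. Its log2 change of 0.49 (SE 0.13, limma adjusted p = 0.291) was opposite in sign to that of Dusp6, and its other probe set stood at 0.07. Cbl, the ubiquitin ligase that sends EGFR to degradation, stood at 0.31 on its main probe set and at -0.33 on another. The transcripts induced by ERK were higher in 4 of 10 genes (median -0.0045), and in none of them were the genotypes apart. Myc stood at 0.51 (SE 0.32, limma adjusted p = 0.651) and Mcl1, a survival factor, at 0.10. Averaging all probe sets of a gene made the values smaller for Nrg2 (0.03), Shc1 (0.17), Gab2 (0.11), Araf (0.06), Pik3ca (0.06), Gsk3b (-0.14), Stat3 (0.02), Jak1 (0.0091), Dusp7 (0.19) and Cbl (0.02), and turned Adam17 to -0.03. Fos, an immediate early gene, ranged from 2.57 to 4.94 within the wild-type arrays alone, and its change was -0.0053.

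**Figure D4:**
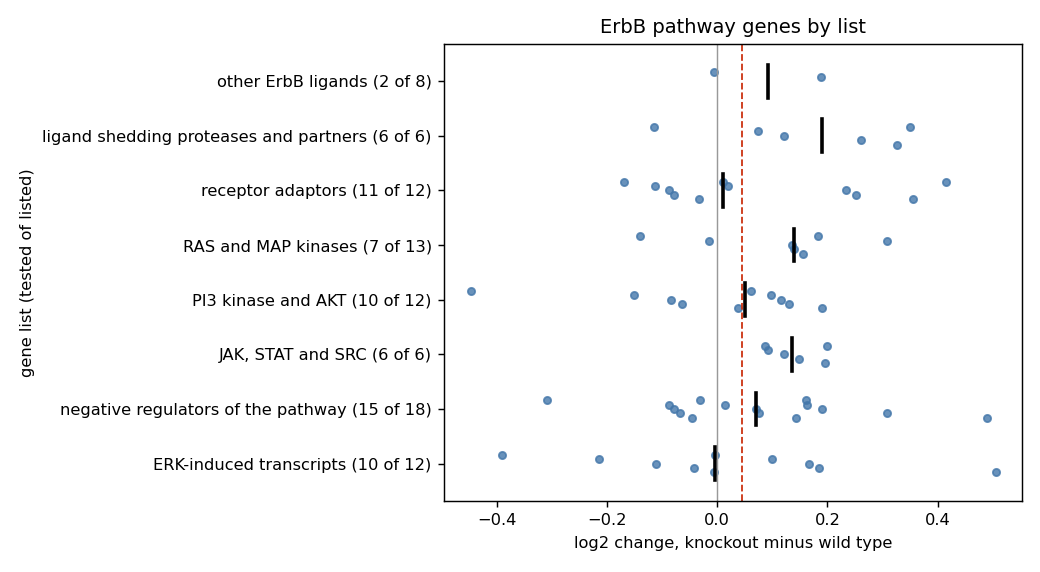
Each point is the log2 change (knockout minus wild type) of 1 tested pathway gene, by list, with black bars for list medians, a dashed red line for the median of all 12466 genes (0.04) and tested over listed genes in brackets. No point passed the test, and list medians lie between -0.0045 and 0.19.

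Marker lists of some other liver cell types had higher means in the knockout, though no marker gene passed on its own and 63.4% of all genes were higher. The mean log2 signal of 6 sinusoidal endothelial markers was 5.15 to 5.42 in wild type and 5.49 to 5.87 in the knockout, with 5 of 6 genes higher. This mean leaned on Lyve1, with a log2 change of 1.29, against 0.28 to 0.38 for the other higher genes and -0.09 for Clec4g. For Stab2, Kdr and Cdh5 knockout replicate 1 lay within the wild-type range. The mean log2 signal of 6 stellate cell markers was 5.82 to 6.01 against 6.14 to 6.31, with 6 of 6 higher. Macrophage markers were higher in 6 of 6, at 6.54 to 6.72 against 6.67 to 7.24, and these means overlapped, as did those of the cholangiocyte, lymphocyte, neutrophil and red blood cell lists. The 3 control probe sets for 18S ribosomal RNA ran from 7.45 to 8.80 over wild-type arrays and from 5.61 to 6.89 over knockout arrays. The part of these in the values of Nrg4, Etv5, Rhbdf1, Shc1, Dusp7 and the other pathway genes was not tested. In bulk liver, fewer cells of a type and less RNA per cell cannot be told apart.

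The genes whose centred values over the 6 arrays lay closest to those of Nrg4 were Dixdc1, Apob and Bco2, with root mean square differences of 0.55, 0.64 and 0.64 log2 units. As Nrg4 fell steeply, this choice takes genes that fell by much on the same 6 arrays. Their log2 changes of -1.27, -1.16 and -1.08 are therefore no separate result. Among these genes Dixdc1 passed over all genes tested (limma adjusted p = 0.041), and it lost the call in 8 of 15 alternatives. Another Dixdc1 probe set stood at 0.07. How near these genes lie to Nrg4 was not examined. A part played by sequence inherited together with the knockout allele was not tested.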

How the data were processed

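Affymetrix MG-430 PM strip arrays were hybridised with labelled RNA made from 250 ng of total liver RNA, per the labels. The deposited table holds log2 values for 45141 probe sets, and affy, RMA and limma are listed in the submitters' processing notes. RMA subtracts background, normalizes arrays by quantiles and summarises probes, so a shift of most genes in 1 direction would be reduced. Their versions and a genome build were not given in the sources used here.

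Of the probe sets 104 were controls, 28898 had 1 gene symbol in the platform annotation, 551 had several and 15588 had none. Symbols were checked by gene number against RefSeq (28689 matched). Genotypes were compared with limma 3.58.1 in R 4.3.3 (lmFit and eBayes, two-sided, Benjamini-Hochberg) in 3 fits: the brightest probe set of each gene above the 40th percentile, every probe set without a filter (45037), and the difference between probe sets of a gene (6552 pairs). Each fit was tested on simulated data. Alternatives covered normalization, filters, the prior, array weights, probe set averaging, the replicate block, leaving out each array and the threshold. The genes named from each pathway list are those that passed or else the 2 with the smallest unadjusted p, and 3 tested genes outside the members were named as nearest to Nrg4. Fos, and the probe sets shared with Fbxo22 and Scpep1, were picked once their values were known. The members and lists were chosen with earlier results of these data known. Promoter sequences are from RefSeq, GRCm38.p6, which holds 8 of the 10 members. Figures used matplotlib 3.10.9 in Python 3.11.15.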

Additional observations from a re-analysis of the deposited data

How the results depend on the processing

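With 3 arrays per genotype, small changes of single genes were not resolved. Nrg4 kept its direction and call in all 15 alternatives, and no other member passed in any. The count of called genes, 5, became 8 after quantile normalization again, 3 with the 60th percentile filter and 29 with a variance trend. This count was 50 with array weights, 3 with the mean of all probe sets and 2 with the replicate block. It was 30 at adjusted p under 0.10 and 1 to 17 when 1 array was left out. The 60th percentile filter left 9304 genes, and Dixdc1 was still among them but lost its call (limma adjusted p = 0.057). The count of called probe sets, 13, became 7 with the 60th percentile filter, 56 with a variance trend, 44 with array weights, 68 at adjusted p under 0.10 and 4 to 41 with 1 array left out (4 without wild-type replicate 2 or knockout replicate 3, 7 without wild-type replicate 3, 41 without knockout replicate 1). The count of called pairs of probe sets, 3, became 0 with the replicate block in limma (679 at unadjusted p under 0.05) and 0 to 4 with 1 array left out. Except for the looser threshold, the cause was not tested.

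Same-numbered arrays did not deviate together (correlations of -0.15, 0.03 and -0.009), so the replicate numbers were not taken as pairs, and the block changed no call of a member. Some signs turned. Adam17, at 0.26, became -0.030 with the mean of all probe sets, Egfr was 0.0064 with array weights, and the second Erbb3 probe set was -0.000057, -0.0031 and -0.069 with quantile normalization, median centring and array weights. With 1 array left out Egfr ranged from -0.28 to 0.0084 and its probe sets 2 and 5, in order of brightness, from -0.32 to 0.015 and from -0.12 to 0.011. In the same way Epgn ranged from -0.10 to 0.053, the second Erbb3 probe set from -0.17 to 0.12 and the second Tgfa probe set from -0.056 to 0.21.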
